A study of Homo sapiens with 9 samples.

Results

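The genes described here are the 2 liver X receptors (LXRs), NR1H2 and NR1H3, and 6 lipid genes that LXRs switch on, namely SREBF1, ABCA1, ABCG1, LPCAT3, MYLIP and SMPDL3A. They are 8 of the 23710 rows of the count table, matched by symbol. All 8 were among the 12546 genes with enough counts to be tested. The genes were chosen by name as textbook LXR genes at a time when the changes of each UGDH hairpin against the control hairpin were already known. Their differences from the control are therefore a description. How many of them the fit over all genes calls is given only beside the share of all genes called, and is no test of them. RNA was sequenced from MDA-MB-231, a human breast cancer line without hormone receptors or HER2 amplification, grown in medium with serum. Every library came from cells transduced with a pGIPZ lentivirus, which carries a short hairpin RNA. The control group carried a non-targeting hairpin (shNT), and the other groups carried 1 of 2 hairpins against UGDH, shUGDH-1 or shUGDH-2. A label of the knockdown samples names shNT beside the UGDH hairpin, so groups were taken from the sample titles. UGDH was lower in every library titled as a knockdown than in every control. Each group has 3 libraries, labelled as biological replicates of 1 cell line. UGDH encodes UDP-glucose dehydrogenase, which makes the UDP-glucuronate used for hyaluronan and proteoglycan chains. The labels do not say whether replicates are separate transductions, so p-values measure only the spread between these libraries, which may be partly technical.

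LXRs are nuclear receptors that bind oxysterols and sterol intermediates and pair with a retinoid X receptor (RXR) on DNA. Their site is a direct repeat of a hexamer spaced by 4 bases, called DR4. Loaded receptors raise genes that move cholesterol out of cells (ABCA1, ABCG1), limit its uptake (MYLIP, which marks lipoprotein receptors for degradation), remodel phospholipids (LPCAT3) and drive fatty acid synthesis through SREBF1. SREBF1 encodes the transcription factors SREBP1a and SREBP1c, which start at separate promoters. The LXR-responsive one is SREBP1c, and a count per gene does not separate them.

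Promoter windows from RefSeq (GRCh38.p14, 250 bases before to 50 after a transcript start) were found for 6 of the 8 members, 9 windows in all, as NR1H3 has several starts. ABCG1 and SMPDL3A had no entry. The authors' build is hg19, and these coordinates are from GRCh38.p14 alone. The 250 bases before the start are printed for ABCA1 (chr9:104928156-104928405, minus strand), SREBF1 (chr17:17836987-17837236, minus strand) and LPCAT3 (chr12:7018477-7018726, minus strand), 3 members that stood higher with both UGDH hairpins. Each reads 5′ to 3′ on the strand of the gene. Capitals mark a DR4 match in ABCA1, GC boxes in SREBF1 and CCAAT boxes in LPCAT3. Which SREBF1 isoform the printed window starts was not determined.

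ABCA1: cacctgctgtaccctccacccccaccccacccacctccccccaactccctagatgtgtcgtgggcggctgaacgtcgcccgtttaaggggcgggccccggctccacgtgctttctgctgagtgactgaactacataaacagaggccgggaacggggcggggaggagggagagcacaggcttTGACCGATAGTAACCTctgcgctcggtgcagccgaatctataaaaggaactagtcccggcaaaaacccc

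SREBF1: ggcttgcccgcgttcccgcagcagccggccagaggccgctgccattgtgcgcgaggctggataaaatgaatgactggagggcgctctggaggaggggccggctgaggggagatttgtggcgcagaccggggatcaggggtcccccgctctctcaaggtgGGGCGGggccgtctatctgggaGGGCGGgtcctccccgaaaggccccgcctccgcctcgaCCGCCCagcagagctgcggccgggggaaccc

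LPCAT3: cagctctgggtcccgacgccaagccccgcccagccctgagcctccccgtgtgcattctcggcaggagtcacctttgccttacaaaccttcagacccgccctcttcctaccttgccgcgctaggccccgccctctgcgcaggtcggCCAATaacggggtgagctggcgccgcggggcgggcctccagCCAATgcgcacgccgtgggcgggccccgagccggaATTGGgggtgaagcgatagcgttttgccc

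The DR4 pattern searched was NGGTNANNNNNGGTCA, on both strands. This pattern leaves more bases open in its first hexamer than in its second, a choice that affects how many windows match. Of 35116 human promoter windows of this length, 83 (0.236%) held the pattern. ABCA1 was the only one of the 9 member windows that did, 69 to 54 bases before its start, where the site on the opposite strand reads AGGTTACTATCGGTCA. This site departs from a repeat of AGGTCA only at base 5 of its first hexamer and base 1 of its second. The pattern takes any letter at both places, so the match follows from the letters chosen. The 0.236% describes all windows and is not read as a measure of the ABCA1 match. A stricter pattern of perfect half-sites, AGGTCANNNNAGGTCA, was in 0.0199% of all windows and in no member window. The single half-site AGGTCA, which is part of the stricter DR4 pattern, was in 13.8% of all windows and in 1 NR1H3 window. The core of a sterol response element, TCACNCCAC, was in 1.13% of all windows and in none of the members'. GC boxes (GGGCGG) were in 45% of all windows and in 7 of the 9, CCAAT boxes (CCAAT) in 34.6% and in 3 of the 9, and the E-box CACGTG in 7.26% and in the ABCA1 window alone among the members. SREBF1 held 3 GC boxes and LPCAT3 held 5 GC boxes and 3 CCAAT boxes. A match is a string of letters in a short window, not a measured binding site.

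**Figure D1:**
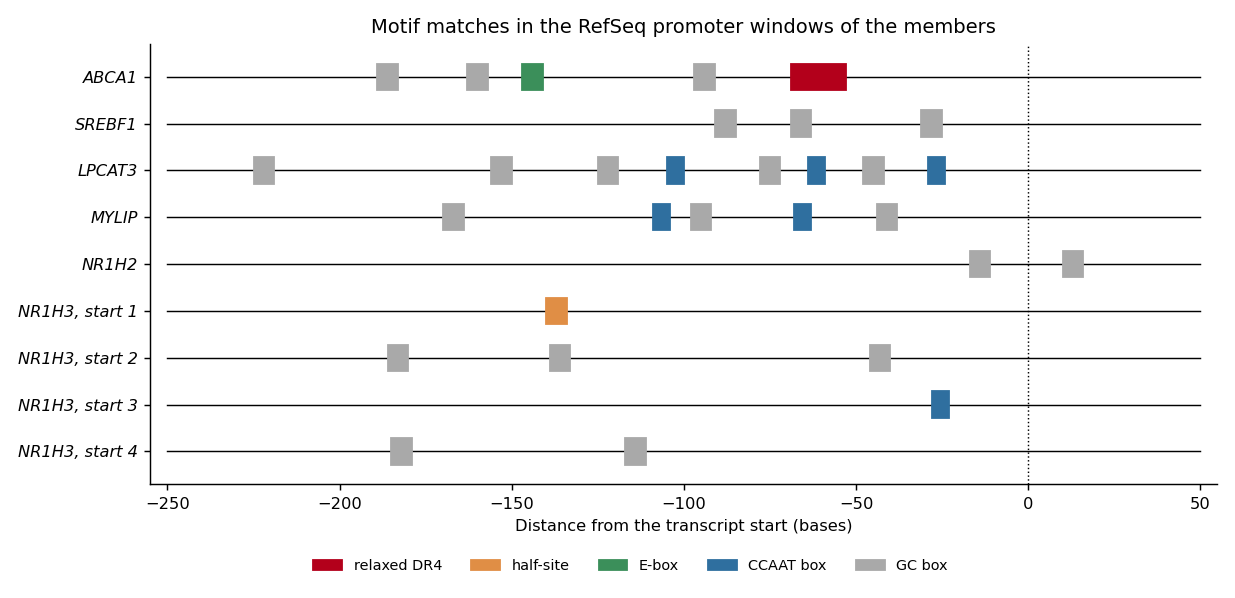
Motif matches in the RefSeq promoter windows of 6 members, drawn against the distance from the transcript start in bases; each line is a window and each block a match on either strand. The DR4 block of ABCA1, 69 to 54 bases before the start, is the only one among the 9 windows.

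The labels give the UGDH hairpins as 19 bases, and both are the reverse complement of a stretch of UGDH transcripts. The control hairpin is given as 22 bases, which have no such match in UGDH. Capitals mark bases 2 to 8 of each string. In a guide these are the seed, through which it can also pair with other transcripts. Whether the 22 control bases are the guide strand was not determined, so their capitals may not be a seed. The first base of each guide in the cells is not known either.

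shUGDH-1: tTGCATCAaatatgcgacg

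shUGDH-2: aTATACTTcagatctgctg

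shNT: aTCTCGCTtgggcgagagtaag

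A 3′ UTR in GENCODE 29 with the matching heptamer was annotated for 12.1% of 11270 genes for shUGDH-1 (TGATGCA) and for 16.1% for shUGDH-2 (AAGTATA), and for 6.65% for shNT (AGCGAGA). None of the 8 members had the shUGDH-1 or the shNT heptamer. ABCA1 was the only member with that of shUGDH-2. Its levels with both hairpins are given below, and whether the seed acts on ABCA1 was not tested.

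Depth ran from 9249738 to 13328002 gene counts per library. UGDH itself fell to 0.144 of the control level with shUGDH-1 and 0.135 with shUGDH-2 (log2 fold changes of -2.80 and -2.89, adjusted p = 3.9e-36 and 1.2e-36 in edgeR). The cell line's markers VIM, CD44, KRT8 and KRT18 summed to 4292 to 4960 CPM (counts per 1000000 counts of the library) over all libraries, and ESR1, PGR and CDH1 together to at most 1.1 CPM. The sum of VIM, CD44, KRT8 and KRT18 was 4292 to 4422 CPM in the controls, 4921 to 4960 with shUGDH-1 and 4359 to 4475 with shUGDH-2. Macrophages are rich in LXR targets, and of 8 macrophage markers AIF1, CD163, MARCO and TYROBP had no count in any library. The sum of the 8, nearly all of it CSF1R and CD14, was 4.94 to 6.46 CPM in the controls, 4.66 to 5.54 with shUGDH-1 and 4.77 to 5.54 with shUGDH-2. These 2 genes moved in opposite directions. CSF1R had means of 3.9, 2.7 and 3.17 CPM in the same order, and CD14 of 1.54, 2.34 and 1.82 CPM. Adipocyte markers summed to at most 0.426 CPM. Hepatocyte markers, nearly all of it SERPINA1, summed to 14.4 to 18 CPM in the controls, 18.4 to 20.7 with shUGDH-1 and 19.8 to 22.8 with shUGDH-2. Fibroblast markers, mostly PDGFRB and COL1A1, summed to 27.7 to 31.3, 30.5 to 32.6 and 34.9 to 36.6 CPM in the same order, with DCN and LUM at 0. The part of these shifts in the results was not tested. Counts are from bulk cultures, in which fewer expressing cells and less RNA per cell cannot be told apart.

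Both receptors were expressed, and neither group of knockdown libraries stood far from the controls. NR1H2, which encodes LXR beta, the widely expressed receptor, had 82.4, 80.7 and 82.3 CPM in the controls, 84.6, 80.7 and 85.1 CPM in the shUGDH-1 libraries, and 84.5, 82.8 and 86.5 CPM in the shUGDH-2 libraries. The log2 fold changes were 0.03 (SE 0.04) and 0.05 (SE 0.04). The shUGDH-1 libraries overlapped the controls, and the shUGDH-2 libraries lay just above them. NR1H3, which encodes LXR alpha and is itself an LXR target in human cells, had 9.53, 9.44 and 8.35 CPM in the controls, 10.5, 10.8 and 8.25 CPM in the shUGDH-1 libraries, and 9.77, 10.7 and 11.6 CPM in the shUGDH-2 libraries. Replicate 3 of shUGDH-1 had the lowest value of all 9 libraries, and the shUGDH-2 libraries were all above the controls. The log2 fold changes were 0.13 (SE 0.12) and 0.23 (SE 0.12). An ACP2 transcript on the opposite strand covers 5.39% of the NR1H3 exons in GENCODE 29, and ACP2 stood at -0.01 and 0.05 on the log2 scale.

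SREBF1 was the most abundant lipid target in the set and stood about 1.5 times higher with either hairpin. Its libraries held 142, 157 and 159 CPM in the controls, 228, 232 and 242 CPM in the shUGDH-1 libraries, and 239.6, 237 and 237 CPM in the shUGDH-2 libraries. The knockdown groups did not overlap with the controls, and each knockdown library was far above the highest control. The means were 153 ± 9.1, 234 ± 7 and 238 ± 1.5 CPM (SD, n = 3). The log2 fold changes were 0.61 (SE 0.03) and 0.64 (SE 0.03), or 1.53-fold and 1.56-fold.

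LPCAT3, an acyltransferase that places polyunsaturated fatty acids into lysophosphatidylcholine, followed the same direction. It had 24, 26.3 and 24.9 CPM in the controls, 37.7, 35.9 and 35.4 CPM in the shUGDH-1 libraries, and 31.7, 33.7 and 33.9 CPM in the shUGDH-2 libraries. All 6 knockdown libraries were above all controls, and those of shUGDH-1 were above those of shUGDH-2. The fold was 1.45 (log2 0.54, SE 0.07) with shUGDH-1 and 1.32 (log2 0.40, SE 0.07) with shUGDH-2. LPCAT3 shares 66.4% of its exon bases with EMG1 on the opposite strand in GENCODE 29. How the authors' counting treated strand and shared bases is not given in the sources used here, so reads of this stretch may have been split between the genes or left out. EMG1 did not stand higher. It had 37 ± 1.7 CPM (SD, n = 3) in the controls, 33.3 ± 3.3 with shUGDH-1 (adjusted p = 0.12 in edgeR) and 31.7 ± 0.47 with shUGDH-2, where it fell (adjusted p = 0.016 in edgeR). Its part in the LPCAT3 values was not tested.

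The cholesterol exporters stood higher together. ABCA1, which loads cholesterol and phospholipid onto lipid-poor apolipoprotein A-I, had 91.5, 87.9 and 81.7 CPM in the controls, 116, 127 and 115 CPM in the shUGDH-1 libraries, and 124, 123 and 119 CPM in the shUGDH-2 libraries. The groups did not overlap with the controls. The log2 fold changes were 0.45 (SE 0.04) and 0.48 (SE 0.04), or 1.37-fold and 1.4-fold. ABCG1, which moves sterols toward high-density lipoprotein, had the largest fold of the 8 members and the fewest counts. The controls held 32, 41 and 22 reads, the shUGDH-1 libraries 66, 51 and 49, and the shUGDH-2 libraries 61, 65 and 66. These equal 2.46, 3.49 and 1.87 CPM, then 5.08, 3.84 and 5.32 CPM, then 5.14, 5.01 and 5.33 CPM. Replicate 2 of shUGDH-1 was the knockdown library nearest to the controls, and no knockdown library overlapped with them. The fold was 1.8 (log2 0.85, SE 0.20) and 1.98 (log2 0.98, SE 0.19), with an SE several times that of ABCA1.

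MYLIP and SMPDL3A, which also respond to LXR agonists in human cells, stayed close to the control. MYLIP, the ubiquitin ligase also called IDOL, had 18.3, 15.6 and 17.8 CPM in the controls, 18.3, 18.8 and 20.4 CPM in the shUGDH-1 libraries, and 18.5, 14.6 and 17.1 CPM in the shUGDH-2 libraries. The lowest shUGDH-1 library lay just above the highest control, by less than the rounding, whereas the shUGDH-2 libraries spanned the controls. Its log2 fold changes were 0.15 (SE 0.09) and -0.04 (SE 0.09). SMPDL3A, a secreted phosphodiesterase of the acid sphingomyelinase family, had 7.91, 8.59 and 8.01 CPM in the controls, 7.85, 6.55 and 7.92 CPM in the shUGDH-1 libraries, and 8.84, 7.55 and 7.43 CPM in the shUGDH-2 libraries. Both knockdown groups overlapped with the controls. The log2 fold changes were -0.14 (SE 0.13) and -0.04 (SE 0.13).

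**Figure D2:**
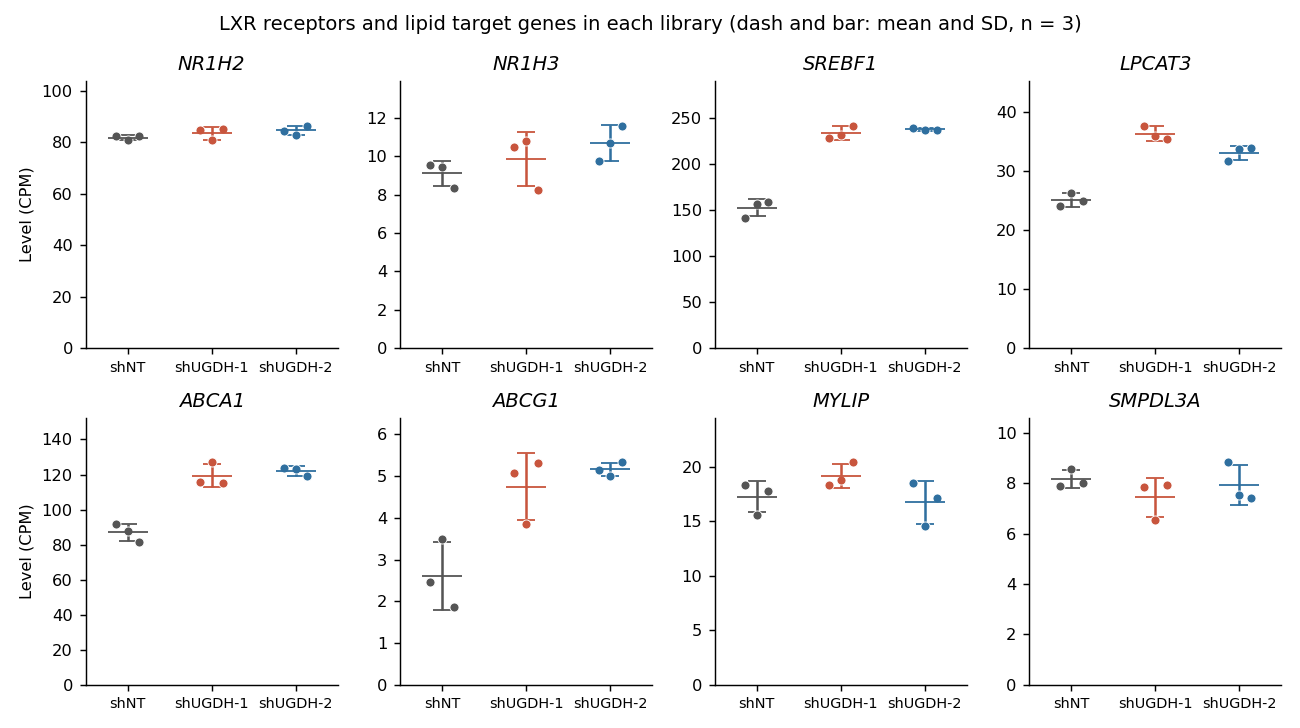
Level in CPM of each of the 8 genes in every library, by hairpin; points are libraries, and the dash and bar are the mean and SD of 3. SREBF1, LPCAT3, ABCA1 and ABCG1 lie above all controls with both UGDH hairpins, whereas NR1H2, MYLIP and SMPDL3A lie near them.

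Counted over the 8 members, 5 had all 3 shUGDH-1 libraries above all 3 controls, a pattern that 17.3% of the 12546 tested genes showed. For shUGDH-2 it was 6 of 8, beside 14.7% of tested genes. At an adjusted p under 0.05 (edgeR's quasi-likelihood test, Benjamini-Hochberg adjustment over all genes), SREBF1, ABCA1, ABCG1 and LPCAT3 were called higher with each hairpin, so 4 of 8, and no member was called lower. Over all genes 10.5% were called higher and 10.3% lower with shUGDH-1, and 8.04% higher and 6.81% lower with shUGDH-2. Since the genes were chosen with these contrasts known, the counts are a description and nothing is read from them. The members' median log2 fold change was 0.30 with shUGDH-1 and 0.32 with shUGDH-2, beside 0.0 and -0.01 over all genes tested. Both contrasts use the same 3 control libraries. In the authors' deposited tables the log2 fold changes of SREBF1 were 0.61 and 0.63, of ABCA1 0.45 and 0.48, of LPCAT3 0.53 and 0.39 and of ABCG1 0.66 and 0.80 for shUGDH-1 and shUGDH-2. Those for ABCG1 are lower than the values fitted here by 0.19 in each.

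Levels of different genes were compared per kilobase of exon, with exon lengths from GENCODE 29. In shNT cells NR1H2 was highest, at 39.1 ± 0.45 CPM per kb (SD, n = 3), followed by SREBF1 at 34 ± 2, LPCAT3 at 11.1 ± 0.5, ABCA1 at 7.73 ± 0.44, MYLIP at 5.68 ± 0.48, SMPDL3A at 4.14 ± 0.18, NR1H3 at 2.6 ± 0.19 and ABCG1 at 0.572 ± 0.18. Each gap between neighbours in this order was wider than their SDs added together. The SDs do not cover exon bases shared with other genes. Reads of the 66.4% of LPCAT3 exon bases shared with EMG1 may have been left out or split, so the rank of LPCAT3 is not settled. LXR beta was thus the main receptor transcript in these cells, and ABCG1 the scarcest member. With shUGDH-1 and shUGDH-2, SREBF1 (52 ± 1.6 and 52.9 ± 0.34 CPM per kb) passed NR1H2 (39.9 ± 1.1 and 40.4 ± 0.88). The other 6 kept their order, from LPCAT3 at 16 ± 0.53 and 14.6 ± 0.55 down to ABCG1 at 1.04 ± 0.17 and 1.13 ± 0.036.

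The hairpins were then compared with each other, a contrast whose difference is between the UGDH hairpin libraries alone, while the spread is estimated over all 9 libraries, the controls included. In edgeR, with p-values adjusted over all genes, no member differed, in a contrast where 5.36% of genes were called higher and 5.51% lower with shUGDH-2. At an unadjusted p under 0.05, LPCAT3 and MYLIP passed, since their 95% intervals leave out 0. DESeq2 called none either. The estimates were tight for the abundant genes. SREBF1 differed by 0.03 on the log2 scale (95% interval -0.03 to 0.09, adjusted p = 0.67 by edgeR), ABCA1 by 0.03 (-0.05 to 0.11, adjusted p = 0.73) and NR1H2 by 0.02 (-0.06 to 0.11, adjusted p = 0.83). LPCAT3 differed by -0.13 (-0.26 to -0.01, adjusted p = 0.18 by edgeR), with all shUGDH-2 libraries below all of shUGDH-1. MYLIP differed by -0.19 (-0.37 to -0.01, adjusted p = 0.19 by edgeR), with overlapping libraries. The intervals were wider for the low genes, -0.20 to 0.48 for ABCG1, -0.13 to 0.33 for NR1H3 and -0.16 to 0.36 for SMPDL3A, so a moderate difference of these genes was not detectable at this depth.

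**Figure D3:**
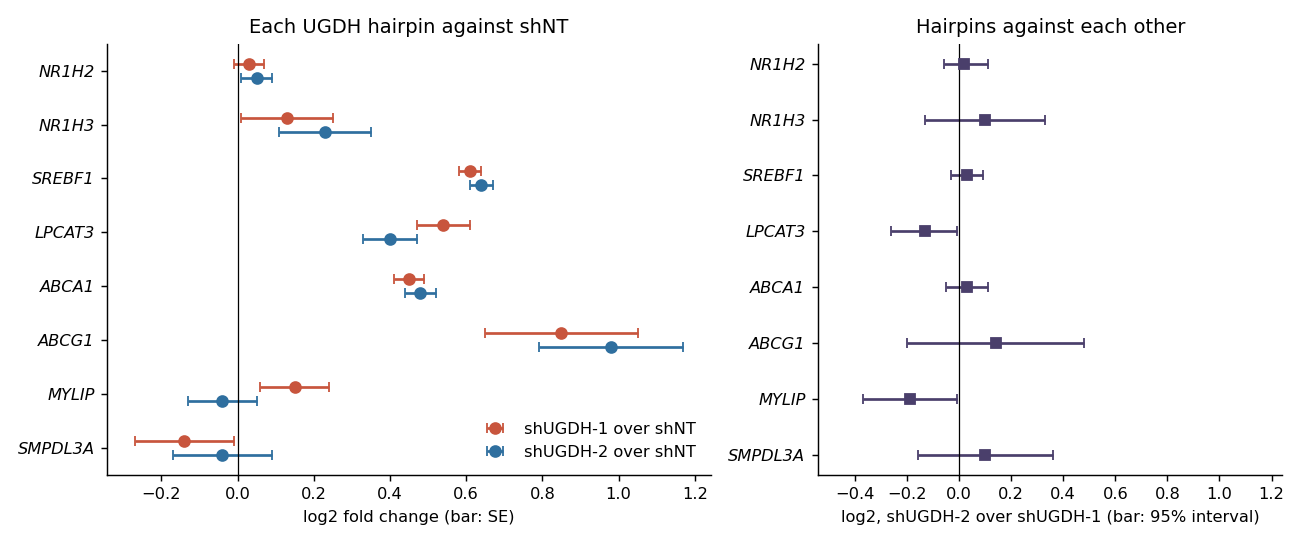
Left, log2 fold change of each member with shUGDH-1 and shUGDH-2 over shNT, with the SE; right, the log2 difference of shUGDH-2 over shUGDH-1 with its 95% interval. On the left SREBF1, LPCAT3, ABCA1 and ABCG1 lie between 0.40 and 0.98, and on the right the estimates lie between -0.19 and 0.14.

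Other genes of the pathway were listed from textbook knowledge, in 8 lists of 84 genes, 68 of which were tested. The shUGDH-1 hairpin gave 23 that rose and 6 that fell. Of all 12546 tested genes, that comparison called 10.5% higher and 10.3% lower. The shUGDH-2 hairpin gave 23 and 2, where the shares of all genes were 8.04% and 6.81%. The all-gene medians to set beside the list medians below were 0.0 and -0.01 on the log2 scale. Because the lists were chosen with earlier results known, these counts are a description and no test. The count that fell with shUGDH-1 was 3 without replicate 3 of that group, and the count that fell with shUGDH-2 was 1 without shNT replicate 1, without shUGDH-2 replicate 1 or without shUGDH-2 replicate 3. With DESeq2 it was 3 and 0. Adjusted p-values for these genes are edgeR's.

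Of 19 other LXR targets, 10 could not be tested. The hepatic and intestinal genes CYP7A1, ABCG5 and ABCG8 and the apolipoprotein genes APOC2 and APOC4 had no count in any library, and 3 counts in the shallowest library would equal 0.324 CPM. APOE, CETP, MLXIPL and CD36 averaged at most 0.49 CPM. Of the 9 tested, 5 rose in the shUGDH-1 comparison, 4 in the shUGDH-2 comparison, and none fell in either. The list's medians were 0.49 and 0.27 on the log2 scale. LPL, lipoprotein lipase, rose from 2.04 ± 0.31 to 10.8 ± 1.2 and 4.78 ± 0.45 CPM (SD, n = 3; adjusted p = 3.3e-18 and 5.1e-06). SCD, which desaturates stearate, rose 2.45-fold and 2.28-fold, and FASN, fatty acid synthase, 1.47-fold and 1.43-fold. TMEM135, a peroxisomal protein, rose 1.4-fold and 1.36-fold (adjusted p = 7.5e-05 and 0.0005). MERTK, a receptor for apoptotic cells, rose 1.21-fold with shUGDH-1 (adjusted p = 0.028) and stood at 1.12-fold with shUGDH-2 (adjusted p = 0.24). The MERTK call was lost with DESeq2 and without shNT replicate 1 or 3 or shUGDH-1 replicate 1 or 3.

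Among RXR partners and LXR cofactors, changes were small and went both ways with shUGDH-1. Of 15 tested, the first hairpin gave 3 that rose and 3 that fell, and the second gave 3 that rose and none that fell, with medians of 0.0 and 0.04 on the log2 scale. RXRA, a partner of both LXRs, rose 1.12-fold and 1.17-fold (adjusted p = 0.009 and 0.00032). RXRB, at 48.4 CPM with shNT, stood at -0.09 and -0.03 on the log2 scale and did not pass. RXRB is outside the rule for names and was added after its values were seen. The RXRA call with shUGDH-1 was lost with DESeq2 and without shNT replicate 3. TBL1X and GPS2, subunits of a nuclear receptor corepressor complex, stood at -0.24 and 0.16 with shUGDH-1 and at 0.01 and 0.01 with shUGDH-2 on the log2 scale. The shUGDH-1 values passed, that of GPS2 with an adjusted p of 0.0085, lost with DESeq2 and without shNT replicate 1 (0.10) or shUGDH-1 replicate 1. The coactivator NCOA3 fell with shUGDH-1 by 0.13 on the log2 scale (adjusted p = 0.027) and stood at 0.03 with shUGDH-2. Its call was lost with DESeq2 and without shNT replicate 1 or 3 or shUGDH-1 replicate 2 or 3. NCOA6, a further coactivator, was called in opposite directions, at -0.10 with shUGDH-1 and 0.11 with shUGDH-2, both lost with DESeq2. It is outside the rule for names and was added after its values were seen.

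Genes that supply or remove sterol ligands rose in 3 of 8 cases with each hairpin, the same 3 genes, and none fell (medians 0.17 and 0.23). DHCR7, which reduces a precursor to cholesterol, rose 1.55-fold and 1.48-fold, and LSS, which closes the sterol rings, 1.38-fold and 1.33-fold. The oxysterol-making CYP27A1, at 9.52 ± 0.98 CPM (SD, n = 3) with shNT, had log2 fold changes of 0.04 and 0.17 and did not pass. CH25H, scarce at 1.06 CPM with shNT (-0.38 and -0.18), and HSD3B7 (0.12 and -0.02) did not pass either. Both are outside the rule for names and were added after their values were seen. SQLE did not pass, at 0.21 and 0.29. For SQLE, the shUGDH-2 value passed in 7 alternatives (no low-count filter, only the groups compared, the replicate block, and without shNT replicate 1, shUGDH-1 replicate 1 or 2, or shUGDH-2 replicate 2), and the shUGDH-1 value passed, at 0.35, without shUGDH-1 replicate 2. Without shUGDH-1 replicate 1 the shUGDH-1 value was 0.04, and without shUGDH-2 replicate 1 the shUGDH-2 value was 0.18, so single libraries decide the SQLE values.

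The genes that process SREBP proteins moved in both directions. Of 6 tested, the first hairpin gave 2 that rose and 1 that fell, and the second 3 and 1 (medians 0.06 and 0.06). SREBF2, the paralog that drives cholesterol synthesis, went from 115 ± 1.2 to 167 ± 7.2 and 163 ± 5 CPM (SD, n = 3), log2 fold changes of 0.53 and 0.50 beside 0.61 and 0.64 for SREBF1. INSIG1, which holds SREBP in the endoplasmic reticulum, rose 1.97-fold and 1.82-fold, whereas INSIG2 stood at 0.08 and 0.00 on the log2 scale and did not pass. MBTPS2, a protease that releases SREBP, fell by 0.27 and 0.17 on the log2 scale (adjusted p = 3.2e-05 and 0.013, the latter lost with DESeq2 and without shNT replicate 1 or shUGDH-2 replicate 1). SCAP, the escort of SREBP, stood at 0.03 and 0.10. The shUGDH-2 value passed at an adjusted p of 0.047 and was lost in 9 of 15 alternatives, among them DESeq2, library totals as the only scaling, only the groups compared, and leaving out shNT replicate 1 or 3, shUGDH-1 replicate 2 or 3, or shUGDH-2 replicate 2 or 3.

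Lipid synthesis targets of SREBP1, a list that shares SCD and FASN with the LXR targets, numbered 14 tested, of which the first hairpin gave 7 that rose and 2 that fell, and the second 8 and 1 (medians 0.15 and 0.16). FADS2 and FADS1, the desaturases of polyunsaturated fatty acids, rose 1.85-fold and 1.33-fold with shUGDH-1 and 1.61-fold and 1.24-fold with shUGDH-2. LPIN1, a phosphatidate phosphatase, rose 1.25-fold and 1.35-fold. GPAM, which starts glycerolipid synthesis, fell by 0.29 and 0.31 on the log2 scale, and ELOVL6, a fatty acid elongase, by 0.15 with shUGDH-1. DESeq2 did not call GPAM with shUGDH-1 and gave it no adjusted p with shUGDH-2. These 2 genes are outside the rule for names and were added after their values were seen.

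Of the substrates of MYLIP and other sterol carriers, 3 of 8 rose in the shUGDH-1 comparison, 2 in the other, and none fell (medians 0.19 and 0.18). LRP8, a lipoprotein receptor, rose 1.2-fold with shUGDH-2 and stood at 1.06-fold with shUGDH-1. VLDLR, at 5.11 ± 0.42 CPM (SD, n = 3) with shNT, rose 1.37-fold with shUGDH-1 (adjusted p = 0.024) and stood at 1.08-fold with shUGDH-2. The VLDLR call was lost with DESeq2 and without shNT replicate 2 or 3 or shUGDH-1 replicate 1, the last with a log2 fold change of 0.29 in place of 0.45. NPC2, which carries cholesterol in lysosomes, rose 1.11-fold with shUGDH-1 and stood at 1.07-fold with shUGDH-2, a value that passed without shUGDH-2 replicate 1. ABCG4, a close relative of ABCG1, was scarce, at 0.704 ± 0.39, 1.28 ± 0.11 and 1.43 ± 0.24 CPM (SD, n = 3), and did not pass (log2 0.83 and 0.99, adjusted p = 0.11 and 0.052). The shUGDH-2 value of ABCG4 passed without shNT replicate 1 or 2, at 1.24 and 1.22. Without shNT replicate 3 the values of ABCG4 were 0.45 and 0.61.

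Relatives of LPCAT3 and SMPDL3A were read in the same way. Of 6 other lysophospholipid acyltransferases, 2 rose with each hairpin, the same 2, and none fell (medians 0.18 and 0.09). LPCAT4 rose 1.23-fold and 1.21-fold and MBOAT7, which acylates lysophosphatidylinositol, 1.15-fold and 1.09-fold. LPCAT2 (log2 0.11 and -0.08), MBOAT1 (0.29 and 0.27) and MBOAT2 (0.16 and 0.02) did not pass with either hairpin. Of 4 tested sphingomyelinase genes none passed with either hairpin (medians 0.03 and 0.16), nor with DESeq2. SMPD1 stood at 0.04 and -0.01, SMPD4 at 0.02 and 0.04, SMPD2 at -0.11 and 0.27 and SMPDL3B at 0.38 and 0.55 on the log2 scale.

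**Figure D4:**
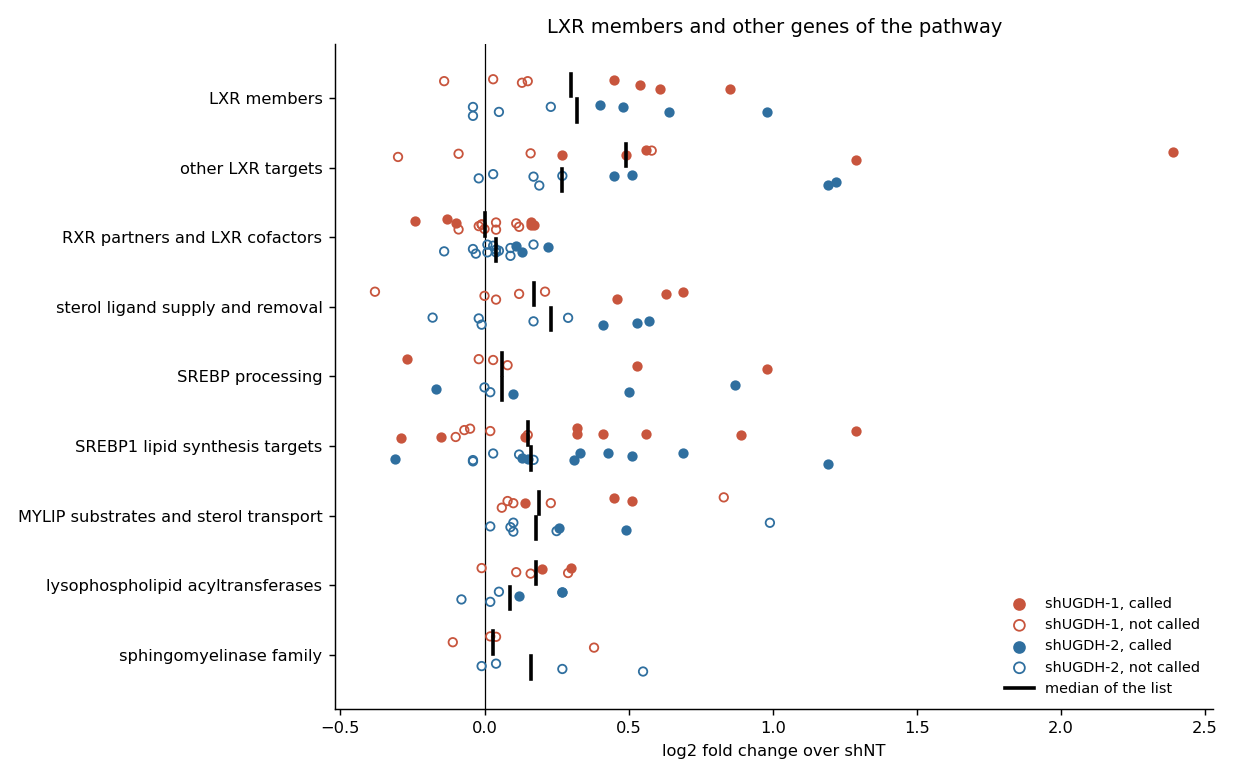
Log2 fold change over shNT of the 8 members and of the tested genes of 8 pathway lists, for shUGDH-1 and shUGDH-2; filled points passed an adjusted p of 0.05, open points did not, and black bars are list medians. Of the members, 4 lie from 0.40 to 0.98 and the others from -0.14 to 0.23, and LPL and SCD reach the highest values.

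Among the genes whose levels followed those of SREBF1 most closely over the 9 libraries (10386 genes with at least 5 CPM) were ACACA (Pearson r of log2 CPM 0.992), THBS1 (0.984), FASN (0.982) and MAP4 (0.981). For ABCA1 they were TMBIM1 (0.992), DAB2IP (0.989), PTPRF (0.987), THBS1 (0.975) and LEPREL1 (0.975). The 9 points fall into 3 groups, and the difference of both hairpins from shNT sets most of each value, so these are descriptions. ACACA, acetyl-CoA carboxylase, and FASN are SREBP targets by textbook knowledge. The log2 fold changes with shUGDH-1 and shUGDH-2 were 0.32 and 0.33 for ACACA and 0.24 and 0.25 for THBS1, thrombospondin. Those of the genes nearest to ABCA1 were smaller than its own 0.45 and 0.48, from 0.13 and 0.14 for TMBIM1 to 0.24 and 0.25 for LEPREL1.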

How the data were processed

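RNA sequencing libraries of MDA-MB-231 cells, 3 for each of shNT, shUGDH-1 and shUGDH-2, were analysed from the authors' deposited table of raw read counts per gene. STAR, DESeq, DESeq2 and the build hg19 are named in the submitters' processing notes. No version, annotation or strand setting is stated there. Log2 fold changes in the authors' deposited tables were read for the members only. Of 23710 rows, 28 carry symbols turned into dates (0.232% of counts) and were kept without a gene name.

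Genes were filtered with filterByExpr (12546 kept, 99.93% of counts) and normalized by TMM (factors 0.9968 to 1.003). One mean per group over all 9 libraries was fitted with edgeR 4.0.16 (R 4.3.3, robust quasi-likelihood, 6 residual degrees of freedom, common biological coefficient of variation 0.0202), with Benjamini-Hochberg adjustment over all genes and a threshold of 0.05. The SE is the absolute log2 fold change divided by the square root of the test's F, and intervals are 95%. The fit was tested on simulated data. Pairs of libraries in a group differed by 1.2 to 1.91 times the counting variance, with both highest values for shNT replicate 1.

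The members and lists were chosen with earlier results of these data known. Genes named are the members, UGDH, up to 5 tested genes per list of at least 1 CPM (those called with both hairpins first, then those called with 1, then by fold) and the 5 genes most like SREBF1 and ABCA1. Alternatives were other scalings (RLE factors, library totals), no low-count filter, DESeq2 1.42.0, only the groups compared, a replicate block and each library left out. Motifs and exon overlaps were read from RefSeq and GENCODE 29 with Python 3.11.15. Values of some listed genes are not reported here, and the counts over lists include them.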

Additional observations from a re-analysis of the deposited data

Results flagged for a closer look

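Of 42 reported genes, the members and the list genes named by the rule, 11 changed differently with the hairpins. The test was shUGDH-2 against shUGDH-1 (edgeR's quasi-likelihood test, adjusted p under 0.05), and none of the 11 was among the 8 LXR genes. Over all genes it called 5.36% higher and 5.51% lower. List genes were named by their calls and folds against shNT, so the count is a description. NCOA6 at 0.21 and ELOVL6 at 0.11, named outside the rule, also passed. Lower with shUGDH-2 on the log2 scale were LPL at -1.18, FADS2 at -0.20, GPS2 at -0.15, INSIG1 at -0.11, SCD at -0.10, FADS1 at -0.10 and MBOAT7 at -0.07. Higher with shUGDH-2 were SMPD2 at 0.38, TBL1X at 0.25, LRP8 at 0.17 and NCOA3 at 0.16. The differences of GPS2, INSIG1, FADS1, MBOAT7, SMPD2, LRP8 and NCOA3 were lost with DESeq2 and with 1 or more single libraries left out. The cause was not tested.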

How the results depend on the processing

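The count of members called higher against shNT was 4 with each hairpin under every alternative run except DESeq2 with shUGDH-2, where it was 3. There DESeq2 gave 4 members, ABCG1 among them, no adjusted p. Over these alternatives the log2 fold change of SREBF1 stayed between 0.56 and 0.67 over both hairpins, and that of ABCA1 between 0.40 and 0.52. That of LPCAT3 stayed between 0.38 and 0.58 and that of ABCG1 between 0.67 and 1.24. The ABCG1 range leaves out DESeq2 with shUGDH-2, which gave it no adjusted p. Over all genes, DESeq2 called 816 higher and 725 lower in the shUGDH-1 comparison (1318 and 1287 in edgeR), 545 and 413 in the shUGDH-2 comparison (1009 and 855), and 392 and 364 between the hairpins (672 and 691). Of the 68 pathway genes, it called 19 higher and 3 lower for the first hairpin (23 and 6 in edgeR). For the second it called 18 and 0 (23 and 2), and between the hairpins 4 higher and 4 lower (8 and 8). With each library left out in turn, pathway genes called lower ranged from 3 to 6 for the first hairpin and from 1 to 2 for the second, and those between the hairpins from 5 to 9 higher and from 4 to 8 lower. Genes called lower with shUGDH-2 ranged from 496 to 815, the lowest without shUGDH-2 replicate 1. Fitting only the UGDH hairpin libraries gave 799 genes higher and 807 lower between the hairpins, and leaving out shNT replicate 1 gave 830 and 797. The cause of these shifts was not tested.

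With the replicate block, shUGDH-1 gave 1298 genes higher and 1284 lower, shUGDH-2 gave 993 and 864, and 658 and 668 differed between the hairpins. It called 4 members higher with each hairpin. Libraries with the same number correlated at -0.097 to 0.169 in their deviations from group means (9 pairs, 1 over 0.1), so the numbers were not taken to pair the samples. Low counts limit ABCG1, NR1H3 and SMPDL3A most, with intervals of the hairpin difference that reach 0.48, 0.33 and 0.36.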
